A study of Mus musculus with 2 samples.

Results

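Endothelial cells line every blood vessel, and the endocardium is the endothelium that lines the heart chambers and valves. A set of 40 genes that mark these cells or carry their signals was followed in RNA from mouse hearts at E13.5. The genes were chosen by name, as the rows of both deposited tables whose symbol was among them, and all 40 were found among 55348 gene entries. The series held 1 RNA-seq library from hearts homozygous for Lmna H222P, a missense mutation in the gene of lamins A and C used as a mouse model of laminopathy, and 1 library from wild-type hearts. Both were of strain 129sv and of total RNA, and the number and sex of the hearts in each were not given in the sources used here. With 1 library per genotype there was no replicate check and no test of the genotypes: every ratio below lies between these 2 libraries, and the 95% intervals cover counting error only.

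Vascular endothelium is built up by VEGF acting on receptor tyrosine kinases of its surface, and is then stabilised by angiopoietin acting on TIE2 and by cell junctions of VE-cadherin. Transcription factors of the ETS and SOXF families hold the cells in the endothelial state, and blood flow acts on them through KLF2. In the embryonic heart the endocardium sends signals to the myocardium for trabeculation and gives rise to the cushions of the valves, while the coronary vessels grow into the ventricular wall at about this stage.

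Reads assigned to genes numbered 25120790 in the H222P library and 32669225 in the wild-type library. The label of heart tissue was met in both, with 12 of 12 cardiomyocyte markers detected at a summed level of 18349 CPM in the H222P library and 34016 CPM in the wild-type library (CPM here are counts scaled to library size and by TMM factors, which assume that most genes do not differ). Markers of other tissue were present in both libraries and differed between them. The 13 hepatocyte genes summed to 6016 CPM against 32.9 CPM in the wild-type library, where 1 of them, Fabp1, was at 0, 10 erythroid genes to 11729 against 7232 CPM, and 10 megakaryocyte genes to 235 against 31.1 CPM. The 7 lung markers summed to 142 CPM in the H222P library and 108 CPM in the wild-type library, and moved both ways: 4 were at least 1.5-fold lower and 2 higher, with a median log2 ratio of −0.63, near that of the endothelial set below. Of these, Sftpc, the surfactant gene of lung epithelium, had 1 read in the H222P library and 211 in the wild-type library, and Nkx2-1, of the lung and thyroid, 161 reads in the H222P library and 381 in the wild-type library, while Foxf1, of lung and gut mesenchyme, had 1543 reads in the H222P library and 451 in the wild-type library. The part of any of these tissues in the results below was not tested. In a bulk sample, fewer cells of a type and less RNA per cell cannot be told apart.

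The 250 bases before the gene start are shown for 4 of the genes, of a ligand and receptors described below. They were chosen to include promoters that hold and that lack cores of factors in the set. These 4 therefore do not show how frequent such cores are. Apln had the lowest ratio, Tek and Flt1 are receptors of the 2 main angiogenic pathways, and Eng is the BMP co-receptor. Sequences are from RefSeq (GRCm38.p6, the assembly of mm10), 5′ to 3′ on the strand of the gene. Capitals mark AGGAAGT, a core recognised by ETS factors, or AACAAT, a core recognised by SOX factors, on either strand.
Apln, chrX:48034854-48035103, minus strand: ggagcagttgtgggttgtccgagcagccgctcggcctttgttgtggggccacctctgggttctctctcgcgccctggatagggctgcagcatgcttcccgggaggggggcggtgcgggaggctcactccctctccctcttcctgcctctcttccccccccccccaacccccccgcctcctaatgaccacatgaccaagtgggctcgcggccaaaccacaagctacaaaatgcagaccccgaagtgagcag
Tek, chr4:94739039-94739288, plus strand: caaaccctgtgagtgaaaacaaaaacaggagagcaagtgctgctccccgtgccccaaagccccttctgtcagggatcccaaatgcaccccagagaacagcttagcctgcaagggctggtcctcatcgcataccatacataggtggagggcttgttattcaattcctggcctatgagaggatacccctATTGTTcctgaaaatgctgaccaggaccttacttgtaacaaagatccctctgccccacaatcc
Flt1, chr5:147726012-147726261, minus strand: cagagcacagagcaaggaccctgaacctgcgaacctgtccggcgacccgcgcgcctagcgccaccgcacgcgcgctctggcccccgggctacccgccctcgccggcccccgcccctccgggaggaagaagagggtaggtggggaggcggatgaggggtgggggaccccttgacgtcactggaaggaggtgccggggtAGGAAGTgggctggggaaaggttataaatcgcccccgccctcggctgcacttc
Eng, chr2:32646345-32646594, plus strand: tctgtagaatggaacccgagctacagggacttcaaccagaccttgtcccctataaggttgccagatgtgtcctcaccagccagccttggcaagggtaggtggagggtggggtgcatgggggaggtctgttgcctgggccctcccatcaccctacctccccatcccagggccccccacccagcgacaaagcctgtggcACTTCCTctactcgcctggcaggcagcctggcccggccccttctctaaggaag

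The ETS match began 53 bases before the start in both Eng and Flt1, and the SOX match of Tek 63 bases before it. Promoters were available for 19 of the 40 genes, taking the first listed start of each. AGGAAGT was found in 3 of them (15.8%, against 7.80% of 27025 promoters of the same length), in Eng, Flt1 and Egfl7. AACAAT was found in 3 (15.8%, against 9.65%), in Tek, Emcn and Calcrl. CCACCC, a core of KLF factors, was found in 6 (31.6%, against 27.7%), and TGGAAA, a core of NFAT factors, in 0 (against 18.7%). A match describes the letters and does not show that a factor binds there. The Apln promoter held none of these 4 cores.

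Endothelial and endocardial genes were lower in the H222P library as a group. Of the 40 genes, all of which had a mean of at least 1 CPM, 21 were at least 1.5-fold lower and 1 was at least 1.5-fold higher. Among all 14716 genes at that level, 11.4% were at least 1.5-fold lower and 10.9% at least 1.5-fold higher. The median log2 ratio, H222P over wild type, was −0.64 for the 40 genes, or 1.56-fold lower, and −0.01 for all genes. The shift was of moderate size and broad: 36 of 40 genes had a log2 ratio below 0 (50.8% of all genes), 32 had their whole interval below 0 (34.2%), and 2 were at least 2-fold lower (4.35%), Apln and Sox17. Sox17 was under 2-fold with total-read scaling (−0.88), with reads of both strands (−0.99) and with a prior count of 5 (−0.99). No gene of the set was at least 2-fold higher (0 of 40, against 5.95% of all genes). The whole interval lay past 1.5-fold lower for 12 genes (6.45% of all genes) and past 1.5-fold higher for 0 (6.8%). The whole interval lay above 0 for 2 genes, Podxl and Vwf (31.6% of all genes). When libraries were scaled by total reads instead of TMM factors, the median of all genes moved to 0.15, and 11 of the 40 genes were at least 1.5-fold lower, against 7.74% of all genes. Cdh5, Esam, Cd34, Tek, Tie1, Tmem100, Sox7, Klf2, Aplnr and Mmrn2 were then within 1.5-fold. The summed reads of the set were 0.194% of reads on genes in the H222P library (exact binomial interval 0.192 to 0.196) and 0.235% in the wild-type library (0.233 to 0.237). The log2 ratio of these sums was −0.28 with total-read scaling and −0.43 (−0.45 to −0.41) with TMM scaling. Ece1, Podxl and Ets1, which are among the more abundant genes in that sum, were not lower by the 1.5-fold rule.

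**Figure D1:**
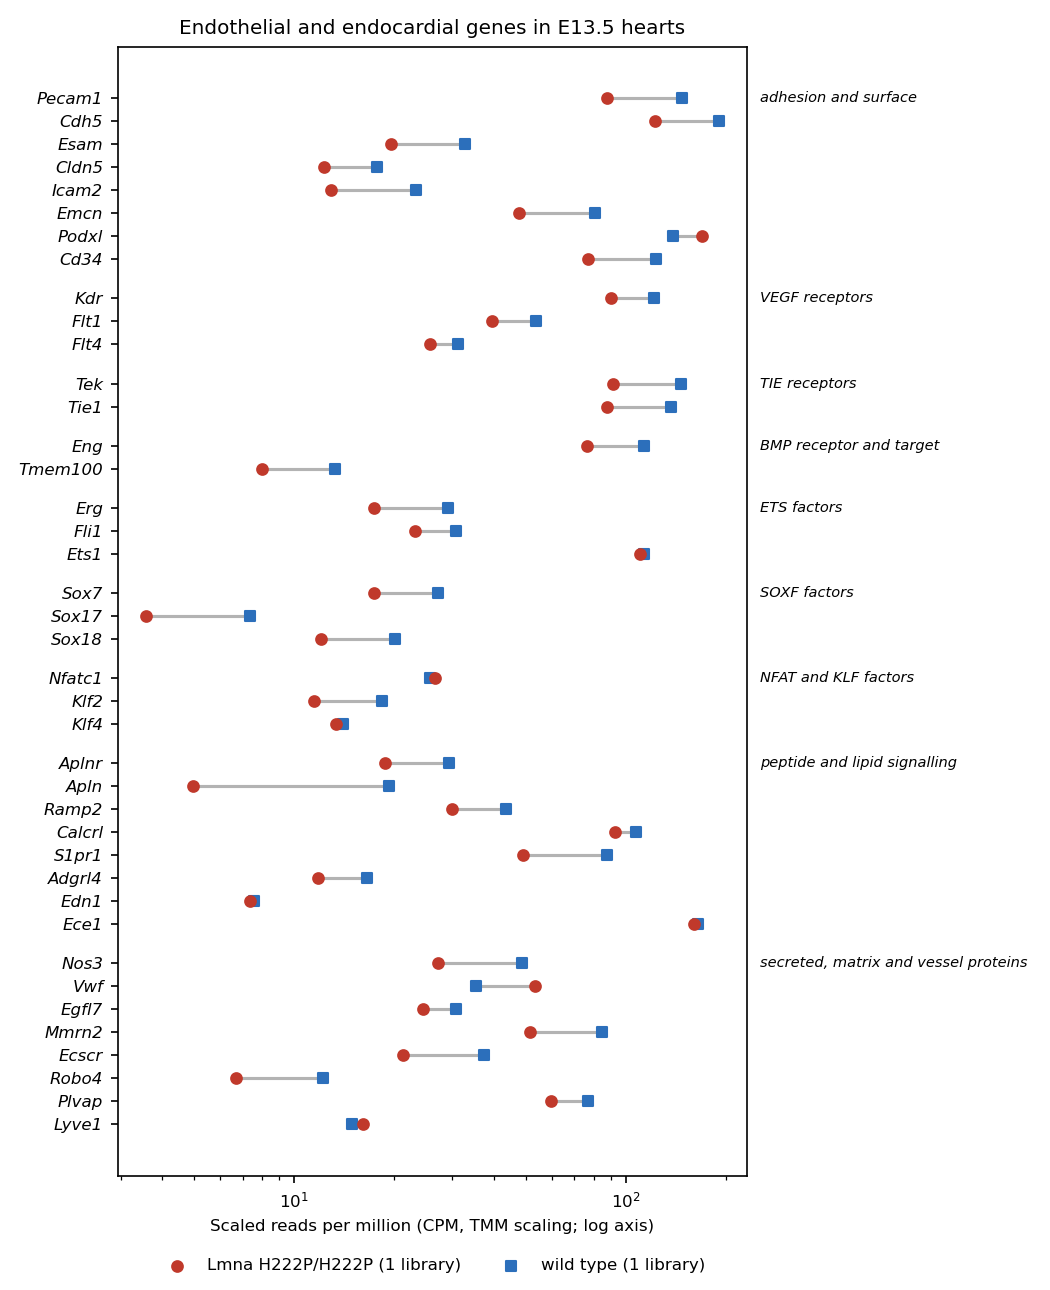
Level of each of the 40 genes in the H222P library (red circles) and the wild-type library (blue squares), in TMM-scaled CPM on a log axis, with 1 library per genotype and no error bars; genes are grouped by role. The red circle lies left of the blue square for 36 genes and right of it for Podxl, Nfatc1, Vwf and Lyve1.

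**Figure D2:**
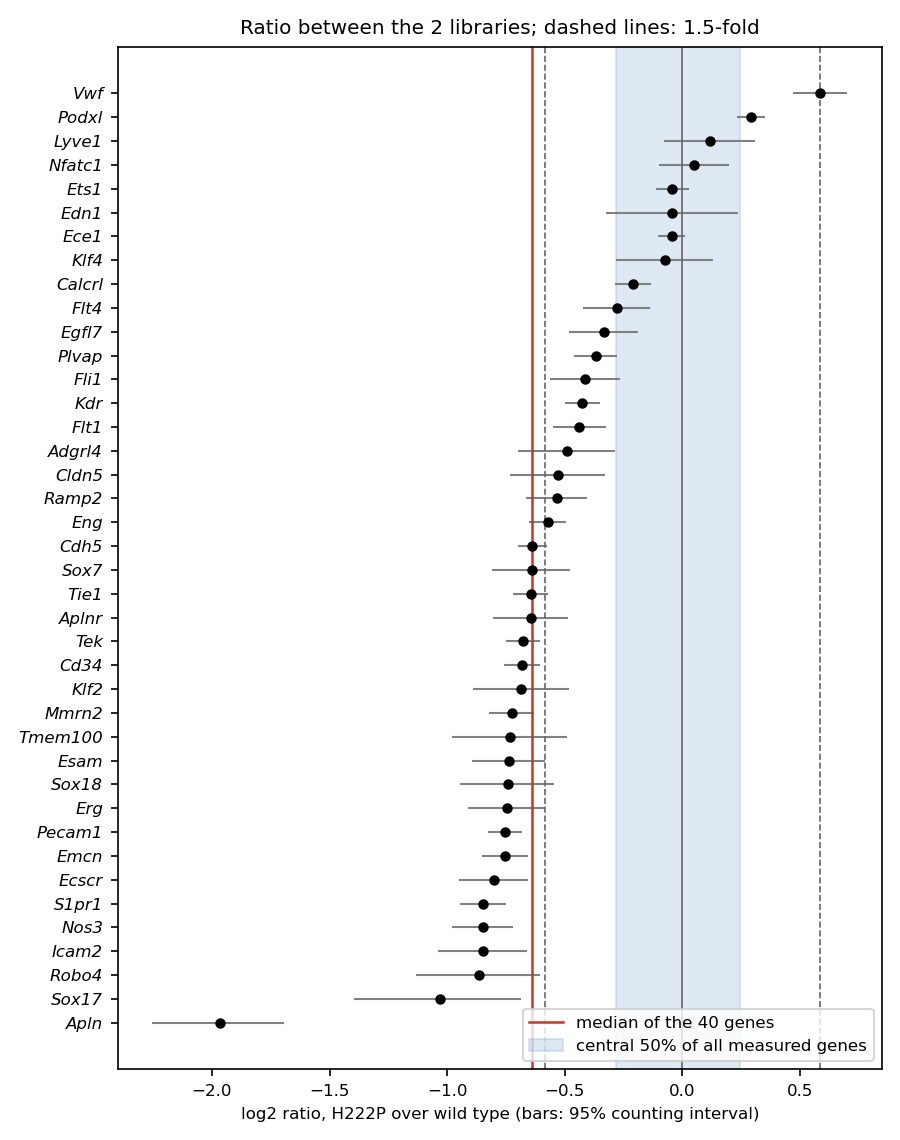
The log2 ratio (H222P over wild type) of each gene with its 95% counting interval, ordered from the highest to the lowest. The red line is the median of −0.64, dashed lines mark 1.5-fold and the shaded band holds the central 50% of all measured genes (−0.28 to 0.25); Apln stands below the others, and Vwf above them.

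Among the 8 genes of junction and surface proteins, 7 had a log2 ratio below 0 (50.8% of all genes). Cdh5, which encodes VE-cadherin of the adherens junction (chromosome 8, 104101625 to 104144511, mm10), had 3243 reads (122 CPM) in the H222P library and 5904 reads (191 CPM) in the wild-type library, and was 1.56-fold lower (1.49 to 1.62). Pecam1, the junctional adhesion molecule CD31 (chromosome 11, 106654217 to 106750628), had 87.6 CPM in the H222P library against 148 CPM in the wild-type library, 1.69-fold lower (1.60 to 1.77). In this group 6 of 8 genes were at least 1.5-fold lower (11.4% of all genes), with a median log2 ratio of −0.71. With total-read scaling Cdh5, Esam and Cd34 were within 1.5-fold. The sialomucin Emcn was 1.69-fold lower (1.58 to 1.81), Esam of the tight junction 1.67-fold, the leukocyte ligand Icam2 1.80-fold (1.58 to 2.05) and Cd34 1.60-fold (1.52 to 1.69). Cldn5, the main claudin of endothelial tight junctions, had 12.3 CPM in the H222P library and 17.8 CPM in the wild-type library, a log2 ratio of −0.53 (−0.73 to −0.33). Podxl, podocalyxin, went against the group: it had 4507 reads (170 CPM) in the H222P library and 4303 reads (139 CPM) in the wild-type library, 1.23-fold higher (1.17 to 1.28). Podxl is also made by the mesothelium and epicardium. A list of 8 markers of those cells, written after the values of the set were seen, had 2 genes at least 1.5-fold lower and 0 higher, a median log2 ratio of −0.41, and summed levels of 394 CPM in the H222P library and 520 CPM in the wild-type library. The part of those or of other cells in the Podxl value was not tested.

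The receptors for VEGF had a median log2 ratio of −0.43. Kdr, the main signalling receptor for VEGF-A (chromosome 5, 75932827 to 75978458), had 2398 reads (90.5 CPM) in the H222P library and 3768 reads (122 CPM) in the wild-type library, 1.34-fold lower (1.28 to 1.41). Flt1, which binds VEGF-A mostly as a decoy, was 1.36-fold lower (1.25 to 1.47), and Flt4, the VEGF-C receptor of sprouting and lymphatic vessels, 1.21-fold lower (1.10 to 1.34). None of the 3 passed 1.5-fold. The number of Flt1 reads for each Kdr read was 0.437 in the H222P library and 0.441 in the wild-type library, so that the decoy and the signalling receptor kept nearly the same proportion. Of the ligands, Vegfa had 76.7 CPM in the H222P library and 67.1 CPM in the wild-type library (log2 ratio 0.19, 0.10 to 0.28). Vegfb had a log2 ratio of −0.45 and Vegfc of −0.29, and Pgf, a ligand of FLT1, of −0.11 (−0.49 to 0.28), while Vegfd was 3.46-fold lower (2.40 to 5.21) on 35 reads in the H222P library against 143 in the wild-type library. The co-receptors split: Nrp1, of arterial endothelium, had a log2 ratio of −0.37 (−0.44 to −0.31) and Nrp2, of veins and lymphatics, was 1.54-fold higher (1.44 to 1.64).

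Both TIE receptors were lower by nearly the same amount. Tek, which encodes TIE2, the angiopoietin receptor (chromosome 4, 94739289 to 94874976), had 2425 reads (91.6 CPM) in the H222P library and 4532 reads (146 CPM) in the wild-type library, 1.60-fold lower (1.52 to 1.68). Its partner Tie1, which modulates TIE2, was 1.56-fold lower (1.49 to 1.64), and the reads of Tek for each read of Tie1 were 1.04 in the H222P library and 1.07 in the wild-type library. The activating ligand Angpt1, made in the heart mainly by myocardium, was 2.07-fold lower (1.99 to 2.16), with 120 CPM in the H222P library and 249 CPM in the wild-type library. Angpt2, the context-dependent antagonist, was much less abundant in both, with 117 reads in the H222P library and 181 in the wild-type library (log2 ratio −0.40, −0.75 to −0.06). Svep1, a matrix ligand of TIE1, had a log2 ratio of −0.36 (−0.48 to −0.25). Ptprb, the phosphatase that restrains TIE2, had a log2 ratio of −0.11 (−0.25 to 0.03).

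In the BMP9 and BMP10 pathway 1 of 3 receptors, Acvrl1, was lower by the 1.5-fold rule (11.4% of all genes). The 2 ligands lay in opposite directions. Eng, endoglin, the co-receptor (chromosome 2, 32646595 to 32682669), had 2022 reads (76.3 CPM) in the H222P library and 3518 reads (114 CPM) in the wild-type library, 1.49-fold lower (1.41 to 1.57), just short of the 1.5-fold rule. Acvrl1, which encodes the receptor ALK1, was 1.81-fold lower (1.51 to 2.17), and Tmem100, an endothelial target of ALK1 signalling, 1.66-fold lower (1.40 to 1.97). Bmpr2 had a log2 ratio of −0.29. Bmp10, a ligand made by the myocardium, was 2.17-fold lower (1.97 to 2.38). Gdf2, which encodes BMP9, a ligand made mainly by the liver, had 333 reads in the H222P library and 15 in the wild-type library, 25.2-fold higher (15.5 to 46.9), in the library in which 13 of 13 hepatocyte markers were also higher by the 1.5-fold rule. The inhibitory SMAD genes Smad6 and Smad7, themselves BMP targets, had log2 ratios of 0.33 and 0.16.

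Among the transcription factors, all 3 SOXF genes were lower by the 1.5-fold rule (11.4% of all genes). Sox17, of arterial endothelium and endocardium, had 95 reads (3.59 CPM) in the H222P library and 228 reads (7.36 CPM) in the wild-type library, 2.05-fold lower (1.61 to 2.63). Sox18 was 1.67-fold lower (1.46 to 1.92). Sox7 was 1.56-fold lower (1.39 to 1.75), and Sox7 had a log2 ratio of −0.49 with total-read scaling. Sox17 was the least abundant of the 40 genes per length in both libraries.

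The ETS factors were graded. Erg, the ETS factor most restricted to endothelium, had 461 reads (17.4 CPM) in the H222P library and 904 reads (29.2 CPM) in the wild-type library, 1.68-fold lower. Fli1 was 1.33-fold lower, and Ets1, which mesenchyme and neural crest also express, had 2920 reads (110 CPM) in the H222P library and 3517 reads (114 CPM) in the wild-type library, a log2 ratio of −0.04 (−0.11 to 0.03) that was positive with total-read scaling. The log2 intervals of Erg (−0.91 to −0.58), Fli1 (−0.56 to −0.26) and Ets1 did not overlap one another.

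Klf2, induced by flow, had 304 reads (11.5 CPM) in the H222P library and 572 reads (18.5 CPM) in the wild-type library, 1.61-fold lower (1.40 to 1.85). Klf4, its relative, which is also induced by flow and is expressed in other cells too, had 13.4 CPM in the H222P library and 14.1 CPM in the wild-type library (log2 ratio −0.07, −0.28 to 0.13). Its ratio was positive with total-read scaling (0.08) and with the deeper library thinned (0.01). Nos3, the endothelial nitric oxide synthase and a target of Klf2, had 718 reads (27.1 CPM) in the H222P library and 1512 reads (48.8 CPM) in the wild-type library, 1.80-fold lower (1.65 to 1.97). Immediate early genes, which respond to handling of tissue as KLF genes can, were measured beside them. Of 9 listed, 8 had a mean of at least 1 CPM, and 0 of these 8 were past 1.5-fold in either direction (median log2 ratio 0.07). Among all genes 11.4% were at least 1.5-fold lower and 10.9% higher. The part of handling in the Klf2 and Klf4 values was not tested. Nfatc1, the factor of the endocardium of the valve-forming cushions (chromosome 18, 80606205 to 80713071), had 707 reads (26.7 CPM) in the H222P library and 799 reads (25.8 CPM) in the wild-type library. Its log2 ratio was 0.05 (−0.10 to 0.20), an interval that includes 0.

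The apelin pathway held the largest difference of the set. Apln, the peptide apelin, which sprouting coronary endothelium makes (chromosome X, 48025146 to 48034853), had 131 reads (4.95 CPM) in the H222P library and 600 reads (19.4 CPM) in the wild-type library, 3.90-fold lower (3.24 to 4.77). Its receptor Aplnr, of venous endothelium and sinus venosus, had 18.8 CPM in the H222P library and 29.4 CPM in the wild-type library, 1.56-fold lower (1.40 to 1.75). The reads of Apln for each read of Aplnr were 0.263 in the H222P library and 0.659 in the wild-type library. Apela, which encodes the second ligand of the receptor, had a log2 ratio of 0.26 (−0.05 to 0.57), on 175 reads in the H222P library and 171 in the wild-type library. The log2 intervals of these 2 ligands of the receptor did not overlap.

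The subunits of the adrenomedullin receptor differed by unequal amounts. Ramp2, the accessory protein that makes the receptor bind adrenomedullin, had 794 reads (30.0 CPM) in the H222P library and 1345 reads (43.4 CPM) in the wild-type library, 1.45-fold lower (1.33 to 1.58). Calcrl, the receptor it escorts, was 1.16-fold lower (1.10 to 1.22). The ligand gene Adm had a log2 ratio of 0.08 (−0.27 to 0.42). Ramp1, which turns the same receptor towards CGRP, was 3.40-fold lower (2.85 to 4.11), and Ramp3 was near the limit of 1 CPM in both libraries.

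For sphingosine 1-phosphate, which steadies vessels through S1pr1, this receptor was lower and the supply genes looked at, Spns2 and Sphk1, were higher. S1pr1 had 1297 reads in the H222P library and 2730 reads in the wild-type library, 1.80-fold lower (1.68 to 1.92). The exporter Spns2 was 1.71-fold higher (1.45 to 2.01), and the kinase Sphk1 was 6.39-fold higher (4.37 to 9.90) on 166 reads in the H222P library against 30 in the wild-type library. Red cells also make this lipid, and 8 of 10 erythroid markers were higher by the 1.5-fold rule in that library. Their part in these values was not tested. S1pr2 and S1pr3 had log2 ratios of −0.03 and 0.55.

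The endothelin genes of the set, Edn1 and Ece1, were nearly level, while other genes of the pathway were not. Edn1, the endothelin-1 precursor, had 195 reads (7.36 CPM) in the H222P library and 235 reads (7.58 CPM) in the wild-type library (log2 ratio −0.04, −0.32 to 0.24). Ece1, the converting enzyme (chromosome 4, 137862237 to 137965229), had 4240 reads (160 CPM) in the H222P library and 5120 reads (165 CPM) in the wild-type library (log2 ratio −0.05, −0.10 to 0.01). Both ratios were positive with total-read scaling. Edn3, another endothelin, had 174 reads in the H222P library and 88 in the wild-type library, 2.31-fold higher (1.78 to 3.02). Ednrb, the receptor of endothelium and endocardium, was 1.66-fold lower (1.59 to 1.73), and Ednra, the receptor of mesenchyme and muscle, had a log2 ratio of −0.37. The orphan adhesion receptor Adgrl4 had a log2 ratio of −0.49 (−0.70 to −0.29).

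The secreted and vessel proteins spanned the whole range. Robo4, a receptor that stabilises vessels, was 1.82-fold lower (1.52 to 2.19) on 177 reads in the H222P library against 378 in the wild-type library. The guidance genes Slit2, Slit3 and Unc5b, the last a receptor that binds ROBO4, had log2 ratios of −0.25, −0.14 and 0.02. Ecscr, a surface protein of endothelial cells, was 1.74-fold lower (1.58 to 1.93), and Mmrn2, a matrix protein of vessels, 1.65-fold lower (1.55 to 1.77). Plvap, the protein of the diaphragms of fenestrae and caveolae, abundant in endocardium, had 59.7 CPM in the H222P library and 77.1 CPM in the wild-type library (log2 ratio −0.37, −0.46 to −0.28). Egfl7, secreted by endothelium, had a log2 ratio of −0.33. Lyve1, the hyaluronan receptor of lymphatics, liver sinusoids and tissue macrophages, had 428 reads (16.2 CPM) in the H222P library and 462 reads (14.9 CPM) in the wild-type library (log2 ratio 0.12, −0.08 to 0.31).

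Vwf, von Willebrand factor (chromosome 6, 125546774 to 125686679), was the highest of the set. It had 1408 reads (53.2 CPM) in the H222P library and 1097 reads (35.4 CPM) in the wild-type library, a log2 ratio of 0.59 (0.47 to 0.70), at the edge of the 1.5-fold rule. Vwf is also made by megakaryocytes. All 9 measured megakaryocyte markers were higher by that rule in the H222P library, with a median log2 ratio of 2.34. The platelet chemokine gene Ppbp was 20.0-fold higher (17.0 to 23.6) and Itga2b, the integrin of platelets, 3.09-fold higher (2.75 to 3.49), and 1 of the 10 listed markers, Gp1bb, had 0 reads in both libraries. The part of such cells in the Vwf value was not tested. Of the 12 genes of the set for which blood cells were listed as another source, Vwf among them, 7 were lower by that rule. In that group 1 gene, Vwf, was higher, and the median was −0.68. The 26 genes with no other source listed had 14 lower and 0 higher (median −0.64), against 11.4% lower and 10.9% higher among all genes. That listing was not complete, since Klf4, among these 26, is expressed in other cells too. Podxl and Lyve1, listed with sources other than blood, were in neither group.

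The order of the levels was compared per length, as RPKM on merged exons and reads on genes, without TMM scaling. Podxl stood first in the H222P library at 32.7, followed by Ece1 at 31.8, Plvap at 31.7 and Cdh5 at 30.7. Cdh5 stood first in the wild-type library at 43.0, followed by Plvap at 36.8, Ece1 at 29.6 and Tek at 29.4. Sox17 was last in both, at 0.792 in the H222P library and 1.46 in the wild-type library. Many places in the order were not separated by counting error: of 39 pairs of neighbours, 31 had overlapping intervals in the H222P library and 25 in the wild-type library. Apln stood at place 38 in the H222P library and place 30 in the wild-type library, and Podxl at place 1 in the H222P library and place 8 in the wild-type library. Merged exon lengths count every annotated exon, so a gene whose hearts use a short isoform is set too low.

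**Figure D3:**
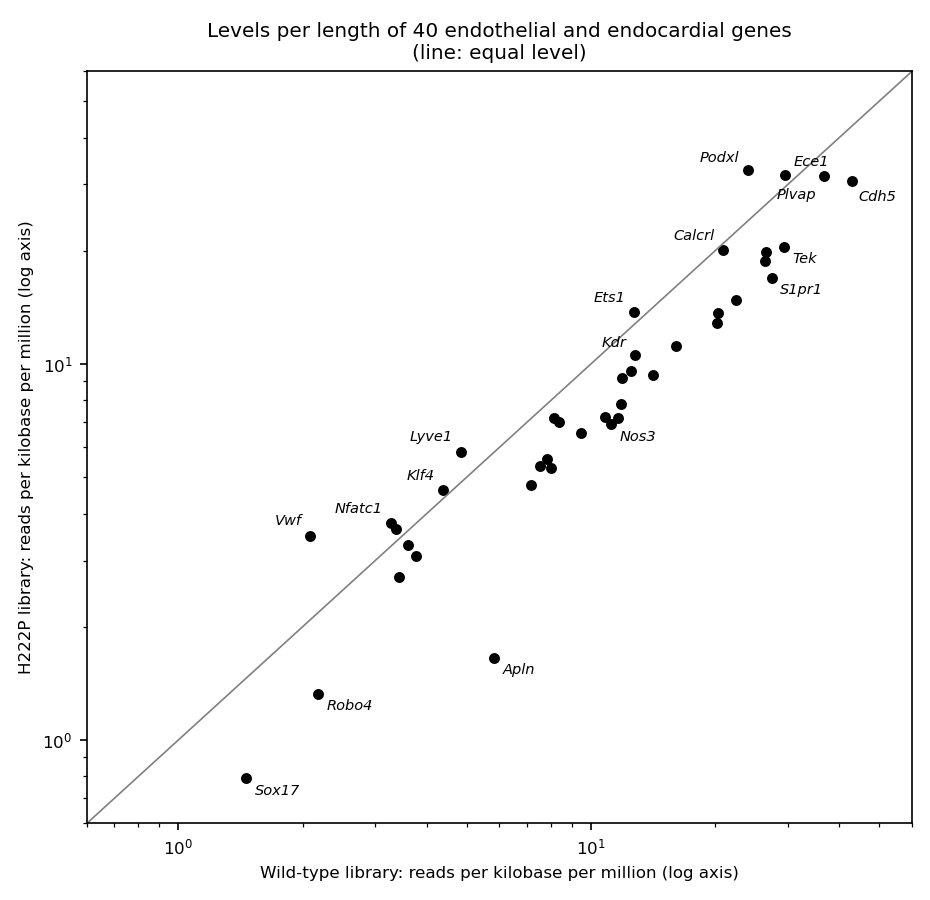
RPKM of the 40 genes in the H222P library (vertical) against the wild-type library (horizontal), both on log axes, with 1 point per gene and a line of equal level. Most points lie in a band just under the line, and Apln lies well below it. Vwf and Podxl lie above the line, as do Lyve1, Nfatc1, Ets1, Edn1, Ece1 and Klf4 by less.

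The genes were also set against an endothelial total. Each library was scaled to its summed reads of Pecam1, Cdh5 and Tie1, which were themselves 3 of the 40 genes. The summed log2 ratio of these 3 genes was −0.67, near the median of −0.64 for the set and away from −0.01 for all genes. A scale taken from the set thus brings its genes near 0 by construction, and the share of all genes beside it is no test. On that scale 26 genes, those 3 included, lay within 1.2-fold between the libraries, against 12.9% of all measured genes. Apln was 2.45-fold lower, and 8 genes were at least 1.5-fold higher, namely Vwf (2.40-fold), Podxl (1.96-fold), Lyve1 (1.73-fold), Nfatc1 (1.65-fold), Ets1, Edn1, Ece1 and Klf4 (1.52-fold for the last). A gene level between the libraries with TMM scaling passes 1.5-fold here, since the total had −0.67 and the rule lies at log2 0.58. Ets1, Edn1, Ece1 and Klf4 were such genes, with TMM-scaled log2 ratios from −0.07 to −0.04. The share of all genes past 1.5-fold was not counted on this scale or the next. With 19 other pan-endothelial genes as the denominator, 17 of the 40 genes lay within 1.2-fold, against 26.2% of all measured genes. On that scale 2 genes were at least 1.5-fold higher, Vwf and Podxl, and 2 at least 1.5-fold lower, Apln and Sox17. This denominator includes Lmo2, which red cell precursors also express. Lmo2 gave 2353 of its 14807 reads in the H222P library and 1020 of its 23145 reads in the wild-type library. The counts were not repeated without Lmo2.

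Lists of endothelial genes outside the set had medians below 0, except the venous one. For comparison, 11.4% of all genes were at least 1.5-fold lower and 10.9% at least 1.5-fold higher. Of 19 other pan-endothelial genes, 9 were at least 1.5-fold lower and 2 higher (median −0.55). The abundant surface lectin Cd93 was the lowest, 2.02-fold lower (1.94 to 2.11), and Lmo2, which red cell precursors also express, the highest, 2.70-fold higher (2.51 to 2.91). Among 9 markers of coronary and capillary endothelium, 6 were lower and 2 higher, and their median was −1.86. Cav1, of caveolae, was 3.62-fold lower (3.47 to 3.78), the fatty acid-binding protein gene Fabp4 14.5-fold lower (12.4 to 17.3) and Rgcc 3.24-fold higher (2.63 to 4.03). Several of them are also expressed by other heart cells. Of 13 arterial markers, 3 were lower and 0 higher, and the median was −0.28, with the connexin gene Gja5, also of atrial and trabecular myocardium, at a log2 ratio of −0.59 (−0.65 to −0.53). The kinase gene Bmx was the lowest of them, 1.87-fold lower (1.63 to 2.16), and the Notch ligand gene Jag1 the highest, at a log2 ratio of 0.28 (0.17 to 0.39). Of 3 venous markers 1 was higher, Nrp2, and 0 were lower (median 0.53). Of 4 tip cell markers 1 was lower and 0 were higher (median −0.25). Of 6 endocardial markers, 3 were lower and 1 higher, with a median of −0.45. Among them the semaphorin receptor gene Plxnd1 was the most abundant, with 6136 reads in the H222P library and 8273 in the wild-type library, and the adhesion receptor gene Adgrg6 was the lowest of those averaging at least 5 CPM, 1.76-fold lower (1.65 to 1.87). The neuregulin gene Nrg1, a signal to the myocardium, was the highest of those, at a log2 ratio of 0.34 (0.03 to 0.65).

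Lists of endothelium from other places split. Their counts by the 1.5-fold rule stand beside 11.4% lower and 10.9% higher among all genes. Of 5 lymphatic markers, 2 were lower and 1 higher, and the median was −0.50, with Prox1, also expressed by cardiomyocytes and hepatocytes, at a log2 ratio of −0.50 and Reln 7.49-fold higher (6.68 to 8.43). Pdpn, also of mesothelium and lung epithelium, was 2.10-fold lower (1.79 to 2.47). Markers of liver sinusoid endothelium had 1 of 7 lower and 2 higher (median −0.30). Among them Stab2 had 312 reads in the H222P library and 54 in the wild-type library, 6.71-fold higher (5.05 to 9.20), while Stab1, shared with macrophages, had 1515 reads in the H222P library and 2652 in the wild-type library. Of 9 macrophage markers, 1 was lower and 0 were higher, and the median was −0.29, with Mrc1 at a log2 ratio of −0.44. Cardiomyocyte markers had 10 of 12 lower and 0 higher, and their median of −0.87 lay below that of the endothelial set. The ligands, co-receptors and enzymes that act with the set, some of them also on the lists above, had 7 of 32 lower and 5 higher (median −0.20).

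**Figure D4:**
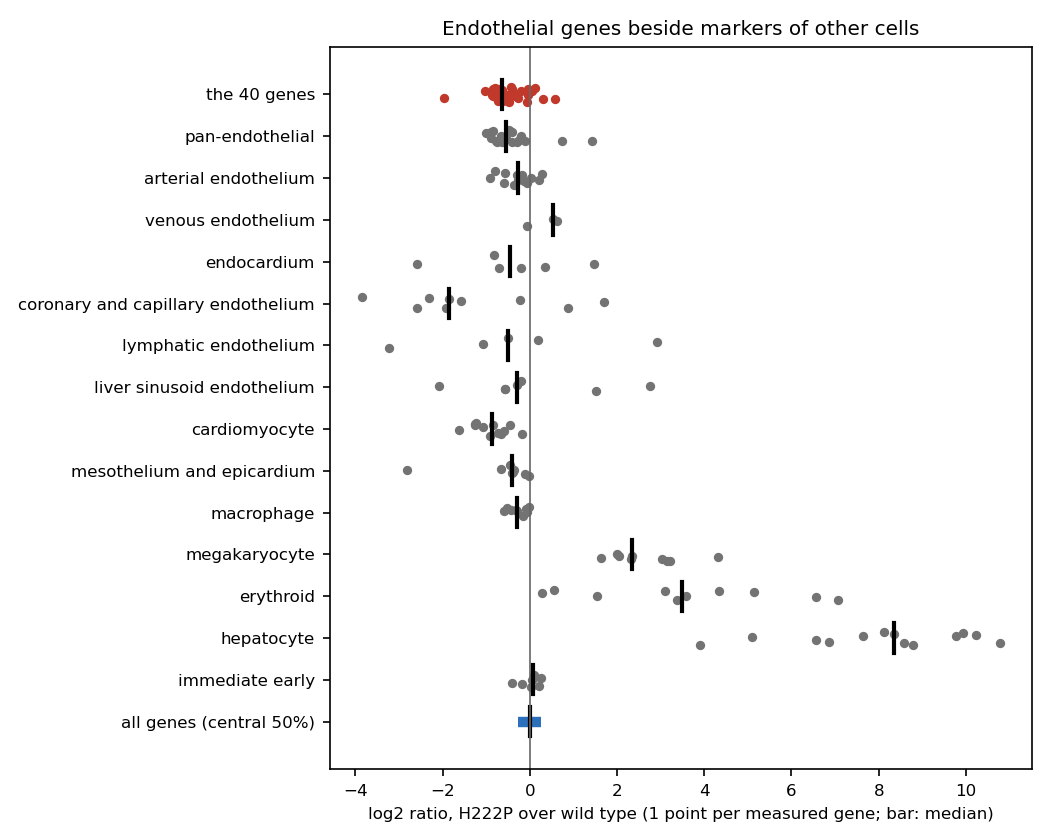
The log2 ratio (H222P over wild type) of each measured gene by list, with 1 point per gene and a black bar at the median; the blue bar is the central 50% of all measured genes. The 40 genes centre on −0.64 and the coronary and capillary list on −1.86, while megakaryocyte, erythroid and hepatocyte markers centre on 2.34, 3.48 and 8.34.

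Across the 40 genes the log2 ratio went only weakly with the level (Spearman's rho 0.24 with log2 mean CPM) and with the exon length (rho 0.30), values that describe genes of the same 2 libraries and carry no test. Some genes of the set overlap another gene on the opposite strand, and Nos3, Ecscr, Cd34 and Edn1 lost the most reads when both strands were counted together. Nos3, which overlaps Atg9b, then had 312 of its 718 reads in the H222P library and 624 of its 1512 in the wild-type library. The other 3 lost a smaller share, and the ratios of all 4 stayed within their counting intervals.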

How the data were processed

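The data were RNA-seq counts of 1 Lmna H222P/H222P and 1 wild-type library of E13.5 hearts, grouped by genotype. Per the labels, RNA was extracted from heart. Reads per gene were deposited as raw counts, without normalization. STAR, HTSeq and DESeq and the build mm10 appear in the submitters' processing notes, with no versions, and no source used here names the annotation release. Of 3 columns of counts per table (both strands, and each strand), the reverse-strand one was used, which had 20.5 (H222P) and 19.3 (wild type) times the reads of the forward one. Entries that name no gene (18.0% of H222P and 17.2% of wild-type reads) were left out.

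Libraries were scaled with TMM factors of edgeR 4.0.16 in R 4.3.3 (1.05 for H222P, 0.948 for wild type). Log2 ratios used a prior count of 0.5, with 95% Clopper-Pearson intervals from scipy 1.17.1. These intervals cover counting error only and treat each read as a separate molecule. Without molecular identifiers, copies of the same molecule cannot be told apart, so the intervals may be too narrow even for that error. With 1 library per genotype nothing was tested, and genes averaging at least 1 CPM were described by size, at 1.5-fold and 2-fold. The computation was checked on simulated counts. Coordinates and exon lengths are from GENCODE M21 (GRCm38). The rule for names allowed all 40 genes, the genes that act with them and, in each marker list, the most abundant, highest and lowest gene averaging at least 5 CPM; not every gene it allowed is named. Gp1bb and Fabp1 (0 reads) and Sftpc fall outside it and were named after their values were seen. The genes and lists were chosen with earlier results of these data known. The 9 alternatives included DESeq2 1.42.0 size factors.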

Additional observations from a re-analysis of the deposited data

Results flagged for a closer look

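Reads on the strand opposite to Eng, a column the comparison did not use, numbered 47 in the H222P library and 20 in the wild-type library, a log2 ratio of 1.44 (0.68 to 2.29) and above the wild-type level by more than counting error. Eng overlaps Fpgs, which lies on the opposite strand and had 682 reads in the H222P library and 491 in the wild-type library. No other gene of the 40 had opposite-strand reads of at least 1 CPM in the H222P library with a whole interval above the wild-type level.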

How the results depend on the processing

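Of 360 values of single genes under 9 alternatives, 336 stayed within their counting interval and 24 moved beyond it, all 24 with scaling by total reads on genes. No gene called by size changed direction. With total reads the set had 11 genes at least 1.5-fold lower, 1 at least 2-fold lower (Apln), a median log2 ratio of −0.49 and a summed log2 ratio of −0.28. With DESeq2 size factors 0 genes were at least 1.5-fold higher, since Vwf had a log2 ratio of 0.56, and the summed log2 ratio was −0.46. With a prior count of 5, 0 genes were at least 1.5-fold higher (Vwf 0.58) and 1 was at least 2-fold lower, as with reads of both strands, since Sox17 then lay under 2-fold. Relative to other pan-endothelial genes, 2 were at least 1.5-fold lower and 2 higher, against 1 and 8 relative to Pecam1, Cdh5 and Tie1. The filters, protein-coding scaling, scaling without hepatocyte, erythroid and globin genes, and thinning of the deeper library kept the number at least 1.5-fold lower between 21 and 23. No paired analysis was possible because each genotype had 1 library. Depth limits Sox17, Apln, Robo4 and Edn1 most, with at most 195 reads each in the H222P library.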
